A study of Mus musculus with 6 samples.

Results

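The fibrillins and elastic fibre proteins followed here are the products of 10 genes, Fbn1, Fbn2, Eln, Fbln1, Fbln2, Fbln5, Efemp2, Mfap4, Mfap5 and Emilin1, in bone marrow MSCs (mesenchymal stem cells, which can form osteoblasts). They were chosen by name, and each of the 10 matched 1 of the 20071 Ensembl IDs counted. The MSCs came from femurs of 6-week-old C57BL/6J mice. The control mice were Pcif1fl/fl (labelled WT), and the others were their Prrx1-Cre;Pcif1fl/fl littermates (labelled CKO), so both carried Pcif1 alleles with loxP sites around exons 5 to 7. Prrx1-Cre, active in limb mesenchyme, removes these exons in the cells it reaches, and cells of other origin in the same culture keep Pcif1. All cultures had spent 7 days in osteogenic medium (dexamethasone at 100 nM, β-glycerophosphate at 5 mM, ascorbic acid at 50 μg/mL) before poly(A) RNA was sequenced. The labels give 3 libraries per genotype although the series text speaks of duplicates, and the sources used here do not tie a library to a mouse, so p-values measure the spread between libraries, which may be technical.

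Elastic fibres are built from a core of crosslinked elastin laid on a scaffold of microfibrils. Fibrillins polymerize into the microfibrils, which also bind latent TGF-β and BMPs, while fibulins and EMILIN-1 sit where microfibrils meet elastin and guide its deposition. Bone holds much fibrillin and little elastin, and inherited fibrillin defects such as Marfan syndrome alter skeletal growth.

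Libraries held between 20258209 and 28227696 counts. Pcif1 itself was at 39.3 to 42.8 CPM (counts scaled to a common library size with edgeR's TMM factors) in WT libraries and 37.8 to 39.7 CPM in CKO libraries, and counts per gene do not show the deleted exons. Xist, the RNA of the inactive X chromosome, was at 232 to 443 CPM in WT and 0.722 to 1.79 CPM in CKO libraries, and 4 of 4 Y-linked genes were read in all 6 libraries but were lower in every WT library, so the sex of the cells and the genotype cannot be told apart. WT replicate 3 stood apart, with 3.63% mitochondrial counts against 1.40% to 1.57% in the other 5 libraries, and the member genes and lists are given with and without it. The mesenchymal markers were present in every library, and at an adjusted p under 0.05 (defined with the first test below) 2 of these 8 were lower and 4 higher in CKO MSCs (3 and 5 without WT replicate 3), where 4.51% and 2.88% of all genes were (10.4% and 11.1%). Macrophage RNA was abundant in both genotypes. The 8 macrophage markers summed to between 26957 and 29421 CPM in WT and between 26538 and 30562 CPM in CKO libraries, most of it Lyz2. In such bulk samples, fewer cells of a type and less RNA per cell cannot be told apart.

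PCIF1 methylates the adenosine next to the mRNA cap, so the first base of a transcript decides whether it can carry this mark. RefSeq start sites on GRCm38.p6 were held for 6 of the 10 genes, 10 starts in all (Fbn2, Eln, Mfap4 and Mfap5 had no entry), and 1 of these 10 began with A, against 34.4% of all 32851 RefSeq starts. The start of Fbn1 is shown as the start with A, and those of Fbln2 and Fbln5 because these genes changed, each as 15 bases before and 15 from the start on, with the first transcribed base in capitals.
Fbn1, chromosome 2, 125506424 to 125506453, minus strand: aaaggagggggccgcAgagttggggcagag
Fbln2, chromosome 6, 91212749 to 91212778, plus strand: cgccctgaggcgggaCctgtggggcggggt
Fbln5, chromosome 12, 101819105 to 101819134, minus strand: gcgctctgacgggctCccctcccagcgccg
Fbln5, chromosome 12, 101818470 to 101818499, minus strand: cagacaacctctctaGgtcatttctctttc
Fbln1 started with G, Emilin1 with C and Efemp2 with G or C. An annotated start is not a measurement of where transcription began in these cells.

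Per kilobase of exon, the scale on which genes can be compared, Fbln2 was the most abundant of the 10 in WT MSCs, at 120 ± 8.90 CPM per kilobase (SD, n = 3). Fbn1 followed at 52.6 ± 2.54, Efemp2 at 39.3 ± 3.18, Emilin1 at 28.5 ± 10.2, Fbln5 at 18.1 ± 1.61, Fbln1 at 6.07 ± 0.866, Mfap5 at 2.81 ± 0.282 and Fbn2 at 2.24 ± 0.0191 CPM per kilobase. Eln was at 0.168 ± 0.0846 CPM per kilobase, and Mfap4 was under the floor of 3 counts in every library. The ranges of Efemp2 and Emilin1 overlapped, as did those of Emilin1 and Fbln5, with Emilin1 lowest in WT replicate 3. The other neighbours did not overlap. In CKO MSCs the order of the means was the same, from Fbln2 at 194 ± 6.45 to Fbn2 at 0.425 ± 0.0305 and Eln at 0.0327 ± 0.0160 CPM per kilobase, and no neighbours overlapped.

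**Figure D1:**
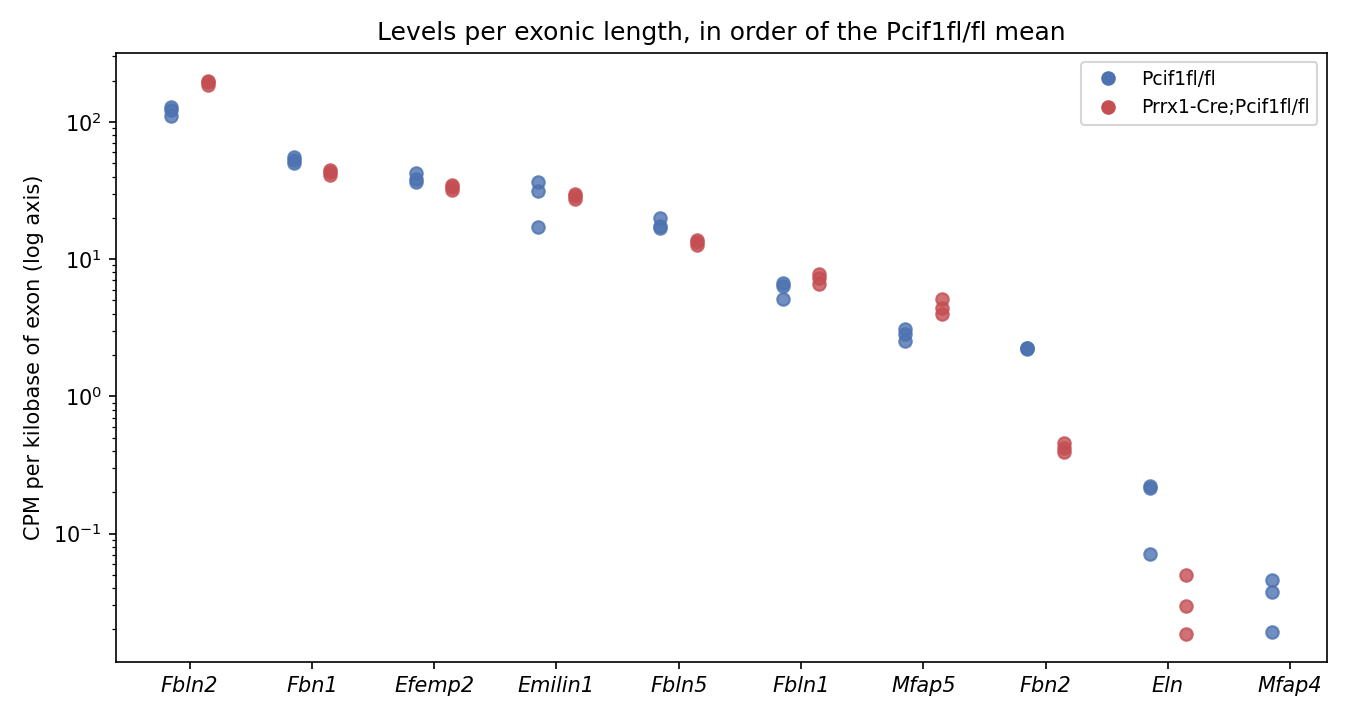
Level of each member gene per kilobase of exon (CPM per kilobase, log axis) in each library, 3 WT (Pcif1fl/fl) in blue and 3 CKO (Prrx1-Cre;Pcif1fl/fl) in red, in order of the WT mean. The genes run from Fbln2, at a mean of 120 in WT MSCs, to Mfap4, whose CKO libraries are at 0 and are not drawn.

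The comparison of the genotypes asked which of these matrix genes differ in MSCs of mice that lose Pcif1 in Prrx1-Cre cells. Fbn2 was lower by 5.27-fold, Fbln5 was modestly lower, and Fbln2 and Mfap5 were modestly higher. Eln, with few counts, was also lower, while Fbn1, Fbln1, Efemp2 and Emilin1 did not pass the test. Counts were tested with edgeR's quasi-likelihood test, and "lower" and "higher" stand for a Benjamini-Hochberg adjusted p under 0.05 over all genes. Of the 9 genes that passed the expression filter, 3 were lower, where 4.51% of the 13733 genes tested were, and 2 were higher, where 2.88% were. Past the study's threshold of 1 on the log2 scale, 2 of the 9 were lower, against 2.50% of all genes, and none higher, against 1.03%. The median log2 fold change of the 9 was -0.23, beside 0.0017 over all genes tested. Eln passed the filter only through its WT libraries, so it would not have been tested had its WT level been as low as in CKO. Of the other 8, 2 were lower and 2 higher, where 4.19% and 2.81% of the 13616 genes past the filter in libraries of both genotypes were, and 1, Fbn2, was lower past the fold threshold, against 2.16%. The median of these 8 was -0.11. All CKO libraries lay below all WT libraries for 5 of the 9 and above for 2, where 15.7% and 15.0% of all genes did so (30.8% in either direction). With DESeq2 6 of the 9 passed, 4 of them lower, where 9.01% and 5.26% of all genes did. Without WT replicate 3, which stood apart, 6 of the 9 were lower and 3 higher, where 10.4% and 11.1% of all genes were, and the share of all genes called in either direction was 21.5% in place of 7.40%. Leaving out any other library left fewer members lower. Without WT replicate 1 or 2, 1 of the 9 was lower, Fbn2, where 3.49% and 3.17% of all genes were, and 2 and 1 were higher, where 2.10% and 1.41% were. Without CKO replicate 1, 2 or 3, Fbn2 was again the 1 member lower and Fbln2 the 1 member higher, where 2.32%, 2.50% and 2.35% of all genes were lower and 1.06%, 1.23% and 1.07% higher. With limma-voom 2 members were lower, without Eln, and 2 higher, where 4.20% and 2.85% of all genes were.

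**Figure D2:**
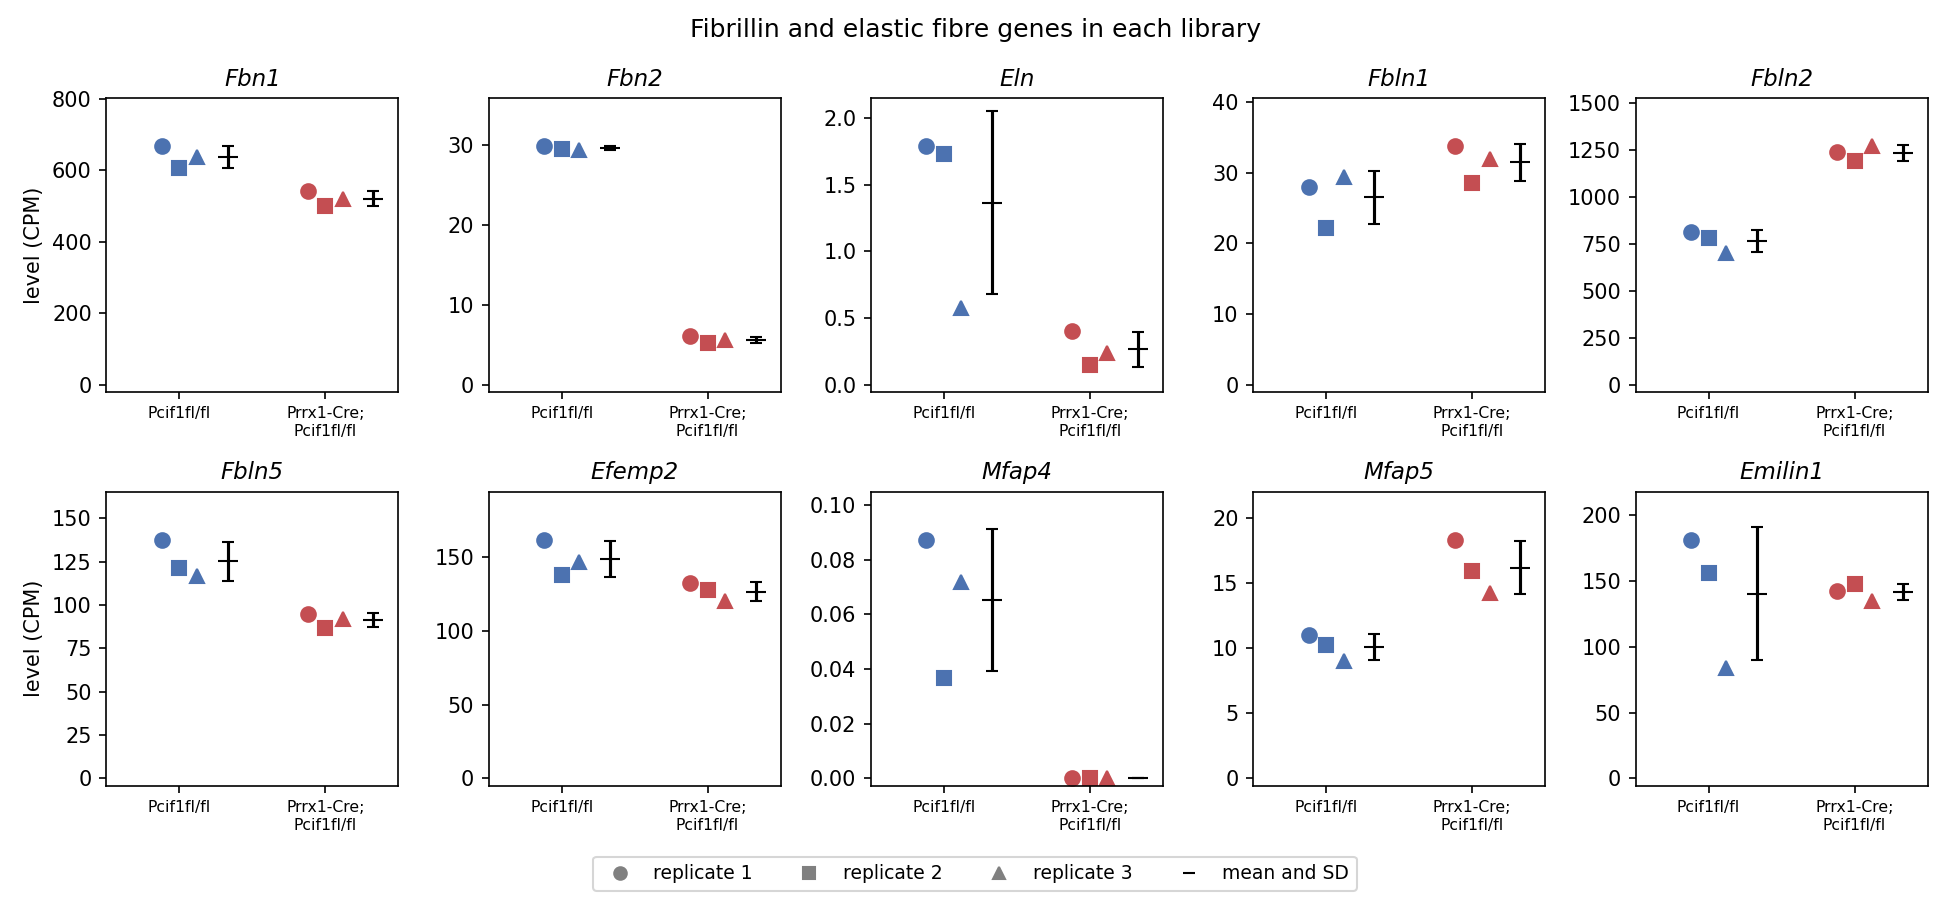
Level in CPM (y axes from 0, on their own scales) of the 10 genes in each library, with WT in blue, CKO in red, a symbol for each replicate number and bars for the mean and SD. Fbn2 is separated without overlap, at 29.4 to 29.9 CPM against 5.23 to 6.03 CPM, whereas in Emilin1 WT replicate 3 lies apart at 84.0 CPM.

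Of the fibrillins, Fbn2, the form made mostly during development, showed the larger difference. Its levels, here and later in the order of replicates 1 to 3, were 29.9, 29.5 and 29.4 CPM in the WT against 6.03, 5.23 and 5.58 CPM in the CKO replicates. The libraries of each genotype lay close together and far from the other genotype. Fbn2 fell to 19.0% of its control level, or -2.40 on the log2 scale (standard error, SE, 0.12, adjusted p = 5.23e-05), and stayed past the threshold under every alternative tried, at -2.45 to -2.35. The antisense gene Gm26507 covers 0.976% of its exonic bases.

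Fbn1 (chromosome 2, 125300594 to 125507993 on GRCm38, as all gene positions here), the main fibrillin of adult tissue, was at 669, 607 and 637 CPM in the WT against 541, 500 and 520 CPM in the CKO replicates. All 3 CKO libraries were below all 3 WT libraries, but the difference was small. Its log2 fold change of -0.29 (SE 0.086, adjusted p = 0.0832) did not pass the test with edgeR. It passed with DESeq2 (-0.29, adjusted p = 0.0455) and without WT replicate 3 (-0.29, adjusted p = 0.00401). The antisense gene Gm9913 overlaps 20.1% of the exonic bases of Fbn1, and without knowledge of strand their reads cannot be told apart.

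Within each library, the share of Fbn2 in the fibrillin reads per kilobase (Fbn1 plus Fbn2) was 3.94%, 4.28% and 4.07% in WT and 1.01%, 0.951% and 0.976% in CKO replicates 1 to 3. The genotypes did not overlap. The mean share was lower by 3.12 percentage points, from 4.10% ± 0.167 (SD, n = 3) to 0.980% ± 0.0310 (SD, n = 3). An exact two-sided permutation test gave p = 0.1, the smallest value that 3 against 3 libraries allow.

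RNA for elastin itself, the rubber-like core protein, was scarce. Eln (chromosome 5, 134702593 to 134747323) had 41, 47 and 16 counts in the WT against 9, 3 and 5 counts in the CKO replicates, or 1.79, 1.73 and 0.574 CPM against 0.405, 0.149 and 0.241 CPM. The genotypes did not overlap, although WT replicate 3 lay nearer to the CKO libraries than to its own group. The log2 fold change was -2.31 (SE 0.57, adjusted p = 0.0458). All 3 WT libraries and 0 CKO libraries reached the expression filter, so this gene was tested only because it is high in WT. Eln was not past the threshold with limma-voom (adjusted p = 0.0951) or when any of the 5 libraries other than WT replicate 3 was left out, where the log2 fold change was between -2.76 and -2.04 and the adjusted p between 0.104 and 0.180. Without WT replicate 3 it was -2.68 (adjusted p = 0.000408). The antisense gene Gm30003 covers 3.30% of its exonic bases.

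The fibulins, calcium-binding glycoproteins with EGF-like repeats, did not move together. Fbln2 (chromosome 6, 91212455 to 91272540), a large fibulin of basement membranes and elastic fibres, was at 811, 783 and 702 CPM in the WT against 1238, 1191 and 1273 CPM in the CKO replicates. All CKO libraries were well above all controls. Fbln2 rose 1.61-fold, or 0.69 on the log2 scale (SE 0.093, adjusted p = 0.00311), and kept an adjusted p under 0.05 with each other tool, scaling, filter and left-out library, at 0.63 to 0.73 (0.63 without WT replicate 3), but lies under the study's threshold of 1. Fbln1 (chromosome 15, 85205949 to 85286535), the other large fibulin, was at 27.9, 22.2 and 29.4 CPM in WT and 33.8, 28.6 and 31.9 CPM in CKO replicates 1 to 3. Its ranges overlapped, and its log2 fold change of 0.25 (SE 0.13, adjusted p = 0.344) was past the threshold only when WT replicate 3 was left out (0.33, adjusted p = 0.0370).

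The short fibulins Fbln5 and Efemp2 bind tropoelastin and lysyl oxidases during fibre assembly. Fbln5 (chromosome 12, 101746565 to 101819055) was at 138, 121 and 117 CPM in WT and 94.9, 87.0 and 92.0 CPM in CKO replicates 1 to 3, with no overlap. It fell to 72.9% of its control level, or -0.46 on the log2 scale (SE 0.096, adjusted p = 0.0253). Leaving out any of the 5 libraries other than WT replicate 3 ended this call, with log2 fold changes of -0.48 to -0.38 and adjusted p between 0.0619 and 0.127, and without WT replicate 3 it was -0.50 (adjusted p = 0.000134).
Efemp2, or fibulin-4 (chromosome 19, 5473954 to 5482517), was at 162, 138 and 146 CPM in the WT against 132, 128 and 120 CPM in the CKO replicates. The genotypes lay close without overlapping, and its log2 fold change was -0.23 (SE 0.094, adjusted p = 0.199), or -0.24 (adjusted p = 0.0336) without WT replicate 3. The antisense gene Mus81 covers 4.57% of its exonic bases.

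Of the microfibril-associated proteins, Mfap5, or MAGP-2 (chromosome 6, 122505845 to 122529290), which binds fibrillins, was at 11.1, 10.2 and 9.04 CPM in WT and 18.4, 15.9 and 14.3 CPM in CKO replicates 1 to 3. All CKO libraries were above all controls. Mfap5 rose 1.60-fold, or 0.68 on the log2 scale (SE 0.15, adjusted p = 0.0269). This call was lost without WT replicate 2 (0.69, adjusted p = 0.0887) or without CKO replicate 1 (0.59, adjusted p = 0.141), 2 (0.70, adjusted p = 0.0995) or 3 (0.77, adjusted p = 0.0584). Without WT replicate 3 it was 0.61 (adjusted p = 0.00271).
Its paralog Mfap2, or MAGP-1, which is no member of the 10, moved the other way, as given with the microfibril partners below. Per kilobase, Mfap5 made up 20.9%, 18.6% and 13.8% of the sum of Mfap5 and Mfap2 in WT and 45.2%, 46.5% and 47.0% in CKO replicates 1 to 3. This pair was chosen after its values were seen and was not tested.
Mfap4 (chromosome 11, 61485431 to 61488900), a microfibril-associated protein with a fibrinogen-like domain, had 2, 1 and 2 counts in WT libraries and 0 in each CKO library. These lie under the floor of 3 counts per library, so it was not tested and no fold is given.

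Emilin1 (chromosome 5, 30913402 to 30921277), a glycoprotein at the interface of elastin and microfibrils, was at 182, 156 and 84.0 CPM in the WT against 142, 148 and 135 CPM in the CKO replicates. The WT libraries were spread so widely that its value turned on which of them were kept. The log2 fold change was 0.013 (SE 0.24, adjusted p = 0.984), and without WT replicate 3 it was -0.25 (SE 0.074, adjusted p = 0.0253), whereas without WT replicate 1 it was 0.24 (SE 0.23, adjusted p = 0.547). It was also below 0 with library totals as the scale (-0.014) and without CKO replicate 2 (-0.017), neither past the threshold.

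**Figure D3:**
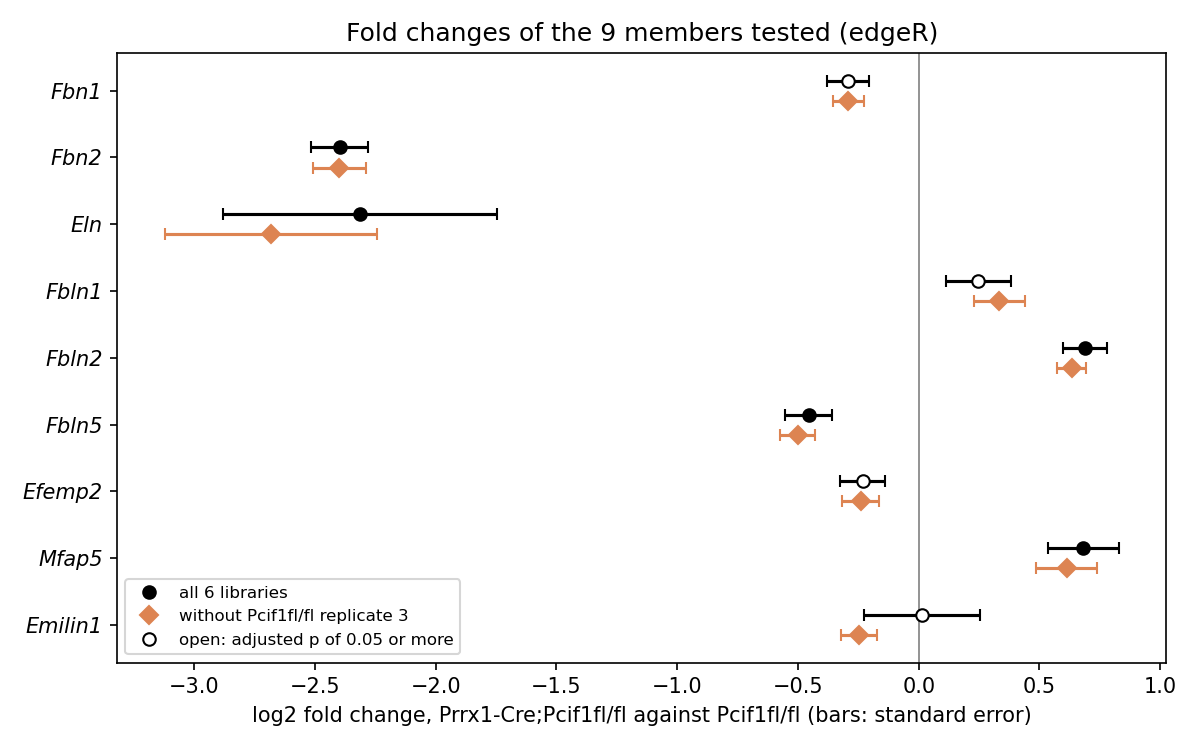
Log2 fold change (x axis, with the standard error as bars) of CKO against WT MSCs for the 9 genes tested, in black with all 6 libraries and in orange without WT replicate 3. Open symbols did not pass an adjusted p under 0.05. Fbn2 stays at -2.40 in both, while Emilin1 moves from 0.013 to -0.25.

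Summed over the 10 genes, counts made up 0.205%, 0.192% and 0.173% of the libraries of WT replicates 1 to 3 and 0.218%, 0.209% and 0.219% of those of CKO replicates 1 to 3. The sum was higher in every CKO library, and Fbln2, which rose, held the most counts of the 10, while Fbn2 and Eln held few.

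Other genes of elastic fibres were read from 4 hand-written lists of 60 genes, of which 53 were tested. Of these, 8 were lower and 7 higher, with 3 of the lower ones past 1 on the log2 scale, and their median log2 fold change was 0.098. The shares over all genes tested were 4.51% lower and 2.88% higher, and 2.50% lower past 1 on the log2 scale. Fbln7, among the 3, passed the expression filter only through its WT libraries. Leaving it out, 7 of 52 were lower and 2 of these past 1, where 4.19% and 2.16% of the genes past the filter in both genotypes were. Without WT replicate 3, 10 were lower and 18 higher (6 and 5 of the microfibril partners, 2 and 4 of the crosslinking and processing genes, 1 and 4 of the proteases, 1 and 5 of the receptors), where 10.4% and 11.1% of all genes were. Leaving out CKO replicates 1, 2 and 3 in turn gave 3, 4 and 3 lower, where 2.32%, 2.50% and 2.35% of all genes were, and 3, 4 and 1 higher, where 1.06%, 1.23% and 1.07% were. The 13 genes of these lists called and named below kept their direction and an adjusted p under 0.05 without WT replicate 3.

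Microfibril partners, the longest of the lists, held most of the lower genes. Of 20 tested, 5 were lower and 2 higher, where 4.51% and 2.88% of all genes were. Fbln7, a short fibulin, was at 1.11 ± 0.254 CPM (SD, n = 3) in WT and 0.161 ± 0.0807 CPM (SD, n = 3) in CKO MSCs, or -2.77 on the log2 scale (SE 0.45, adjusted p = 0.00737). Like Eln, Fbln7 reached the expression filter in WT libraries only. Without it 4 of 19 microfibril partners were lower, where 4.19% of the genes past the filter in both genotypes were. Mfap2, which encodes MAGP-1 and binds fibrillin and TGF-β, was at 14.1, 15.1 and 19.1 CPM in WT and 7.52, 6.17 and 5.44 CPM in CKO replicates 1 to 3. Its log2 fold change was -1.34 (SE 0.18, adjusted p = 0.00304), so the MAGP genes differed in opposite directions. Adamtsl3, an ADAMTS-like matrix protein, fell by 1.05 and Efemp1, or fibulin-3, by 0.87 on the log2 scale (adjusted p = 0.00223 and 0.0159). The latent TGF-β binding protein gene Ltbp1 rose, with a log2 fold change of 0.55 (adjusted p = 0.00737). Efemp1 was not past the threshold without CKO replicate 1 (-0.83), 2 (-0.94) or 3 (-0.83), nor Ltbp1 without CKO replicate 3 (0.55). Without WT replicate 3, the log2 fold change was -2.73 for Fbln7, -1.19 for Mfap2, -0.98 for Adamtsl3, -0.67 for Efemp1 and 0.50 for Ltbp1.

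Crosslinking and processing genes held 2 lower and 1 higher gene of 12 tested, where 4.51% and 2.88% of all genes were. Loxl1, the lysyl oxidase needed to maintain elastic fibres, was at 204, 166 and 196 CPM in the WT against 131, 118 and 130 CPM in the CKO replicates, or -0.58 on the log2 scale (SE 0.10, adjusted p = 0.0123). Loxl3, another lysyl oxidase, went the other way, rising by 0.81 on the log2 scale (SE 0.14, adjusted p = 0.0116), and the antisense gene Htra2 overlaps 11.6% of its exonic bases. Lox, the most abundant of the family in CPM, had a log2 fold change of 0.12 (adjusted p = 0.662), or 0.29 (adjusted p = 0.00777) without WT replicate 3. Pcsk6, a proprotein convertase, fell by 0.92 on the log2 scale (adjusted p = 0.0104). Loxl1 and Pcsk6 were not past the threshold when any single CKO library was left out (-0.60 to -0.53 and -0.95 to -0.89), nor Loxl3 without CKO replicate 2 (0.78) or 3 (0.81). When WT replicate 3 was left out, Loxl1 was at -0.55, Pcsk6 at -0.95 and Loxl3 at 0.66 on the log2 scale.

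Among proteases that can cut elastin, 2 of 10 tested were higher and 0 lower, where 2.88% and 4.51% of all genes were. Higher were Mmp2 with a log2 fold change of 0.50 (adjusted p = 0.00803) and Ctsl, which encodes cathepsin L, with one of 0.67 (adjusted p = 0.00961). Antisense gene Gm47123 overlaps 26.8% of the exonic bases of Ctsl. Both lost the call without CKO replicate 1 (0.50 for Mmp2 and 0.65 for Ctsl) or 3 (0.51 and 0.67). Of 11 receptor genes tested, 2 were higher and 1 lower, beside the same shares. The integrin subunits Itgav and Itga5 were higher, with log2 fold changes of 0.70 and 0.51 (adjusted p = 0.00583 and 0.0173). Itga9, whose integrin binds EMILIN-1, was lower at -0.71 (adjusted p = 0.0143). Itga5 was not past the threshold without CKO replicate 1 (0.50), 2 (0.53) or 3 (0.51), nor Itga9 without replicate 1 (-0.72) or 3 (-0.59) of that genotype. When WT replicate 3 was left out, the log2 fold changes were 0.48 for Mmp2, 0.56 for Ctsl, 0.79 for Itgav, 0.43 for Itga5 and -0.67 for Itga9.

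**Figure D4:**
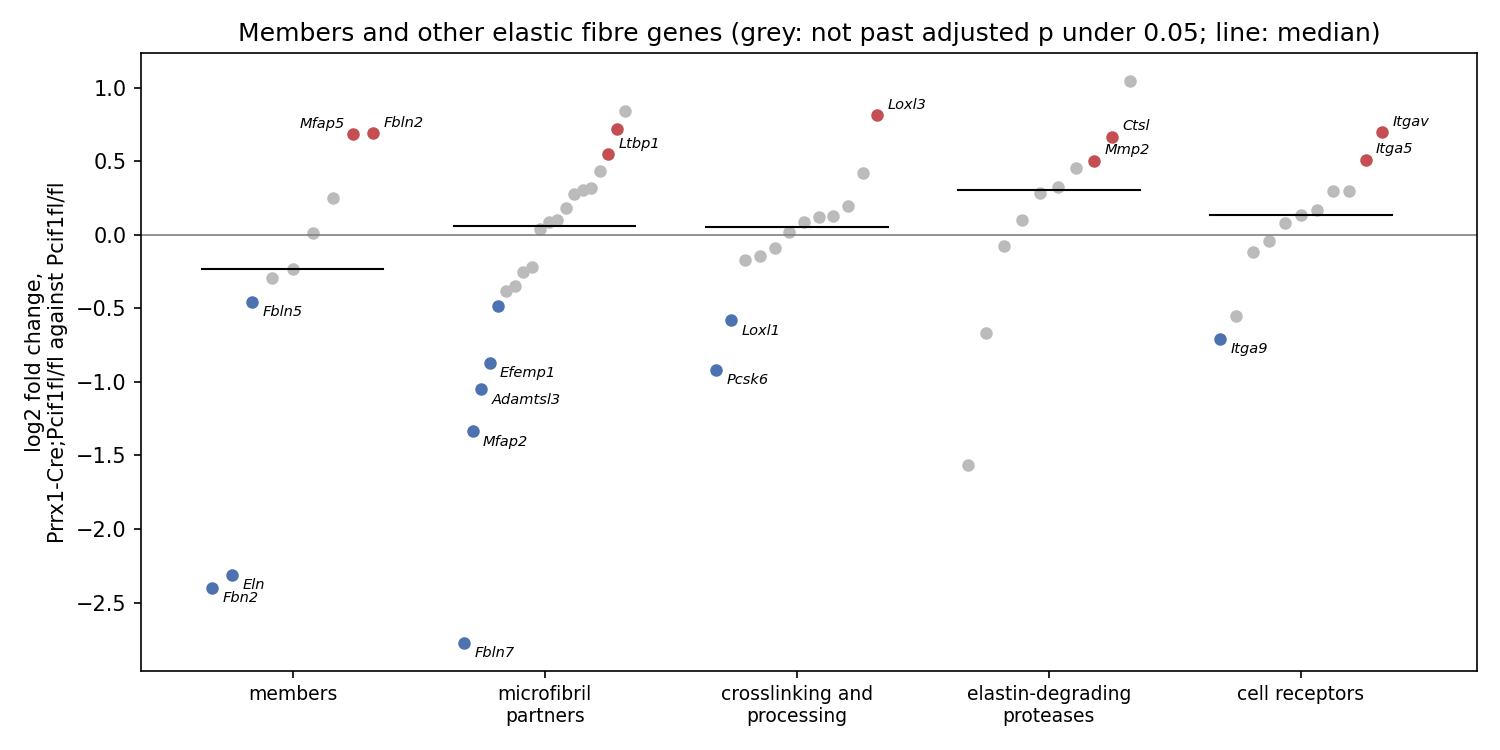
Log2 fold change (y axis) of CKO against WT MSCs for the members and the 4 other lists, each gene a point, blue where lower, red where higher and grey where not past an adjusted p under 0.05, with the list's median as a line. Names mark up to 5 genes per list with the smallest p. Each group of genes except the proteases holds points in both colours.

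Markers of other cell types that make or could dilute this RNA were read beside these results. Their counts stand beside the same 4.51% lower and 2.88% higher of all genes, or 10.4% and 11.1% without WT replicate 3. With DESeq2 9.01% of all genes passed in either direction, and with limma-voom 4.20% were lower and 2.85% higher. Smooth muscle markers, from cells known for elastic fibre synthesis, summed to between 594 and 758 CPM in WT and between 625 and 653 CPM in CKO libraries. Most of this sum was Acta2, at 452 to 614 CPM in WT and 507 to 529 CPM in CKO libraries. Of the 8, 0 were past the edgeR threshold, 3 passed with DESeq2, 0 with limma-voom and 3, all lower, without WT replicate 3. Of the 8 macrophage markers 0 passed with edgeR, 2 with DESeq2 and 0 with limma-voom, and 1 was lower and 3 higher without WT replicate 3. Most adipocyte markers tested were lower. Of 6 tested, 5 were lower, with and without WT replicate 3, and 3 of these, Plin1, Cidec and Cfd, reached the expression filter in WT libraries only. Of the other 3, 2 were lower, where 4.19% of the genes past the filter in both genotypes were. Adipoq, which encodes adiponectin, went from 47.0 ± 5.96 CPM (SD, n = 3) in WT to 0.824 ± 0.608 CPM (SD, n = 3) in CKO MSCs, and Pparg, the master regulator of adipocyte formation, had a log2 fold change of -1.57 (adjusted p = 0.000557). The exception was Fabp4, a fatty acid binding protein, at 66.3 to 78.8 CPM in WT and 85.3 to 107 CPM in CKO libraries, with a log2 fold change of 0.46 (adjusted p = 0.0545), or 0.40 (adjusted p = 0.00600) without WT replicate 3. Fabp4 made up most of the CKO sum, and the 7 in the file summed to between 153 and 160 CPM in WT and between 96.9 and 117 CPM in CKO libraries, where Plin1 and Cfd were at 0 counts in each of the 3. Osteoblast markers included 3 lower of 7 tested, with and without WT replicate 3. These were Sp7, the osteoblast transcription factor, at -1.88 on the log2 scale, Ibsp, or bone sialoprotein, at -1.25, and Alpl, the bone alkaline phosphatase, at -1.11 (adjusted p = 0.000432, 0.000585 and 0.000464). The list summed to between 10093 and 17231 CPM in WT and between 12061 and 20293 CPM in CKO libraries, most of it Spp1, which was higher when WT replicate 3 was left out (log2 fold change 0.66, adjusted p = 0.0110). Of the chondrocyte markers 2 of 4 tested were lower, with and without WT replicate 3, Col10a1 with a log2 fold change of -1.61 and Comp with one of -1.10 (adjusted p = 0.00520 and 0.00516). Col2a1, the cartilage collagen, was above all WT libraries in every CKO library, with a log2 fold change of 0.69 (adjusted p = 0.111), or 0.51 (adjusted p = 0.0301) without WT replicate 3. The chondrocyte list summed to between 41.5 and 54.0 CPM in WT and between 33.7 and 40.7 CPM in CKO libraries. Endothelial markers summed to between 26.5 and 39.2 CPM in WT and between 23.2 and 24.7 CPM in CKO libraries. Of the 8, 0 were past the edgeR threshold, 1 passed with DESeq2, 0 with limma-voom and 1, lower, without WT replicate 3. The part of these cell types in the differences of the elastic fibre genes was not tested.

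Genes with a profile close to that of Fbn2 were sought by the root mean square difference of centred log2(CPM + 1) values over the 6 libraries, as a description. The genotype difference is part of each profile, so similar fold changes among the nearest genes follow from the search. The 5 nearest were Dpep1, Stxbp6, Lgi2, Wdr86 and Kng1, at differences of 0.105 to 0.130 and with log2 fold changes of -2.22, -2.46, -2.51, -3.60 and -2.34. The added 1 shrinks differences at low levels, as for Wdr86 at 5.44 CPM in WT and 0.443 CPM in CKO MSCs on average. For Fbln2 the 5 nearest were Niban2, Cox11, Ctsl, Col1a1 and Sgk1, at differences of 0.0537 to 0.0627. Their log2 fold changes lay between 0.61 and 0.70. Col1a1, the main collagen chain of bone, was at 4039 CPM in WT and 6173 CPM in CKO MSCs on average.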

How the data were processed

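Cultures of 3 WT and 3 CKO MSC samples were sequenced as paired reads after poly(A) selection. Per the labels and methods, HISAT2 placed the filtered reads on mm10, and the authors deposited raw counts per gene, without normalization. The counting tool, annotation and use of strand are not given in the sources used here. Of 20163 rows, 92 repeat an Ensembl ID with equal counts, and each ID was used once.

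The quasi-likelihood test of edgeR 4.0.16 (R 4.3.3, TMM scaling, filterByExpr, genotype as the only term) was run on all counts, with Benjamini-Hochberg adjustment over 13733 genes. The SE is the size of the log2 fold change over the root of its F statistic. Exonic lengths, positions and overlaps come from GENCODE release M21 on GRCm38, and start sequences from RefSeq. Alternatives were DESeq2 1.42.0, limma-voom (limma 3.58.1), RLE or total-count scaling, no filter, a mean of at least 10 counts, a replicate block, a fold threshold and leaving out each library. The counts over all genes without a library or with limma-voom, those without genes that pass the filter in 1 genotype only, and the share of Mfap5 beside Mfap2 were added after seeing the data. On simulated counts for this comparison, edgeR recovered 200 of 200 genes changed by 2 on the log2 scale among 13686 tested, with 5 false calls. The simulation gave all genes the same spread, held no library that stood apart and changed only genes with enough counts. It therefore does not bear on smaller fold changes or on genes with few counts, such as Eln.

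Genes named are the 10 members, up to 5 called genes per list by p, the 5 nearest profiles of the member with the smallest p and of the one with the largest rise, and Pcif1. Xist, Lox and the markers given with values were named after their values were seen. Members and lists were chosen with earlier results of these data known.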

Additional observations from a re-analysis of the deposited data

How the results depend on the processing

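Of 117 values of the 9 members under alternatives, 94 kept their direction and their side of the threshold, 16 lost the call, 4 gained one in the same direction and 3 changed sign, all 3 of Emilin1 (-0.014 with library totals, -0.25 without WT replicate 3, where it also gained a call, and -0.017 without CKO replicate 2). Leaving out 1 library gave log2 fold changes of -0.25 to 0.24 for Emilin1, 1 to 6 lower and 1 to 3 higher members, and 3 to 10 lower and 1 to 18 higher genes of the other lists, with the highest counts without WT replicate 3, and 472 to 2991 genes called in all. With a fold threshold of 1 on the log2 scale, 0 members were higher, and 3 genes of the other lists were lower and 0 higher. The 13 other named genes kept their direction in all 169 values and lost the call in 21. Without division by length the share of Fbn2 in fibrillin reads fell by 3.38 percentage points, and without 1 library by 3.03 to 3.19.

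Replicate numbers are shared between genotypes, but deviations of equally numbered libraries correlated by 0.0701, -0.0552 and 0.00265, and not every library correlated best with its own number, so the numbers were not taken as pairs. With the replicate number as a block, 770 genes were called in place of 1016, and 2 members were lower, Fbln5 losing its call (adjusted p = 0.0524), and 2 higher. Low counts limit Eln and Mfap4.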
